A study of Mus musculus with 18 samples.

Results

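The cytosolic ribosomal protein genes encode the protein parts of the ribosomes that translate nuclear-encoded mRNAs. They were taken as all genes whose symbol is Rpl or Rps followed by a number, with at most 1 letter and 1 digit after it, plus Rpsa, Rplp0, Rplp1 and Rplp2. The rule found 84 of 24346 listed genes, 51 of the large subunit and 33 of the small subunit, and used no measured value. Their RNA was measured in 18 libraries of islets isolated from C57BL/6 mice, 3 in each of 6 groups. The groups were Cdh13 exon2 deleted and Cdh13 floxed mice at 14 weeks of age after 6 weeks of high-fat diet, the same genotypes at 14 weeks on chow, and the same genotypes at 8 weeks on chow. The floxed mice carry the exon between loxP sites and stand for the intact gene. The Cre line or cell type behind the deletion is not given in the sources used here, nor whether the libraries of a group are from different animals, and p-values cover the spread between libraries only.

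Each ribosome joins a small subunit, which decodes the mRNA, to a large subunit, which forms the peptide bond. In mammals most ribosomal protein mRNAs start with a C followed by a run of pyrimidines, the 5′ terminal oligopyrimidine (TOP) motif, through which mTOR signalling controls their translation. Beta cells of the islet make and secrete large amounts of insulin and have a high demand for protein synthesis.

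Listed start sites of a few members are shown, with and without such a pyrimidine run. They are RefSeq starts on GRCm38.p6, 10 bases before and 20 bases from the start, with the C and the pyrimidines after it in capitals where such a run of at least 5 bases begins within 5 bases of the start.
Rps6 (chr4:86857348-86857377, minus strand): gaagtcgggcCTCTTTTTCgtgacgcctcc
Rps10 (chr17:27635225-27635254, minus strand): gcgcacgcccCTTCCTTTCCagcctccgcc
Rps21 (chr2:180257369-180257398, plus strand): aggacccgccCTCCTgcccaatagtgctgc
Rps27l (chr9:66946076-66946105, plus strand): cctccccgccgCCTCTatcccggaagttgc
Rps28 (chr17:33824543-33824572, minus strand): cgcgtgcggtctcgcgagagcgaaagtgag
Rpl37a (chr1:72711250-72711279, plus strand): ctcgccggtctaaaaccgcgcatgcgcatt
Of the 81 members tested, 60 matched the promoter table by symbol. A C and 4 pyrimidines stood exactly at a listed start in 13 of these 60 (21.7%), against 3.01% of the 27025 genes of the table. Within 5 bases of the start the run was found in 29 of 60 (48.3%), against 21.2% of all genes. Listed starts can differ from those used in islets, so a window without a run does not show that the mRNA lacks the motif. CCGGAAG, searched on both strands of the 300 bases around the start, was found in 25 of 60 members (41.7%), against 9.93% of all genes and 20.4% of the other tested genes. CTTTCC on both strands of the same window was found in 31 of 60 (51.7%), against 29.3% of all genes, and it can overlap a pyrimidine run.

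Levels are FPKM, a unit that by definition gives fragments per kilobase of transcript scaled to the mapped total. The values used here look further rescaled between libraries, so they may not follow the mapped total alone. Differences are on the log2(FPKM + 1) scale, which understates the change of genes at low FPKM. Of the 84 members, 81 reached 1 FPKM in 3 or more of the 18 libraries and were tested, among 12234 genes. The other 3 are paralogs with a restricted expression in adult tissues. Rpl10l was listed at 0 in every library, and Rpl3l and Rpl39l peaked at 0.101 and 0.123 FPKM. Summed FPKM per library ranged from 903346 to 1394010 and the number of fragments is unknown. Insulin genes Ins1 and Ins2 held 42.1% to 54.8% of it, and the ribosomal protein genes held 2.26% to 2.80%. Cdh13, the deleted gene, was lower in deleted islets, with differences of -0.69 on the high-fat diet (adjusted p = 0.0107, limma), -0.78 on chow at 14 weeks and -0.51 on chow at 8 weeks, the chow values not called. The 10 endocrine markers of the islet summed to at least 485825 FPKM in every library. In bulk islets, fewer cells of a type and less RNA per cell cannot be told apart.

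Members differed widely in level, per length. Rpl41, a 25-residue protein of the large subunit, was the most abundant and held 6.36% of the members' summed FPKM on average. Rpl10, which joins late in large subunit assembly, held 3.40%, and Rps18, of the small subunit head, held 3.22%. At the low end of the tested members stood Rps15a with a mean of 12.2 FPKM over the 18 libraries and Rpl22 with 27.6 FPKM. Across libraries the members moved together. As a description over 18 libraries that share their group differences and scaling, Pearson's r of a member with the median of the others had a median of 0.97, and of 0.93 for deviations from group means. For the values it was at least 0.9 in 67 of 81 members, and below 0.5 in 6, namely Rpl3, Rpl7l1, Rps2, Rpl26, Rpl30 and Rps27. For deviations it was at least 0.9 in 62 members and below 0.5 in 4. Rpl3 (0.92) and Rps2 (0.98) were not among those 4, so within groups they moved with the others.

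After 6 weeks of high-fat diet, ribosomal protein genes were higher in islets of both genotypes than on chow at the same age. The 84 genes summed to 36389, 38362 and 37113 FPKM in deleted islets on the high-fat diet, against 25910, 29563 and 22893 FPKM in deleted islets on chow. In floxed islets the sums were 38259, 36105 and 38249 FPKM on the high-fat diet, against 22739, 26421 and 29315 FPKM on chow. Every library on the high-fat diet lay above every chow library of either genotype. As a share of all FPKM the sums were closer, at 2.72% to 2.75% in deleted and 2.69% to 2.78% in floxed islets on the high-fat diet, against 2.53% to 2.74% in deleted and 2.42% to 2.80% in floxed islets on chow. Without Ins1 and Ins2 in the total, the share was 5.72% to 5.97% in deleted and 5.80% to 6.13% in floxed islets on the high-fat diet, against 4.37% to 5.05% in deleted and 4.19% to 5.06% in floxed islets on chow.

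**Figure D1:**
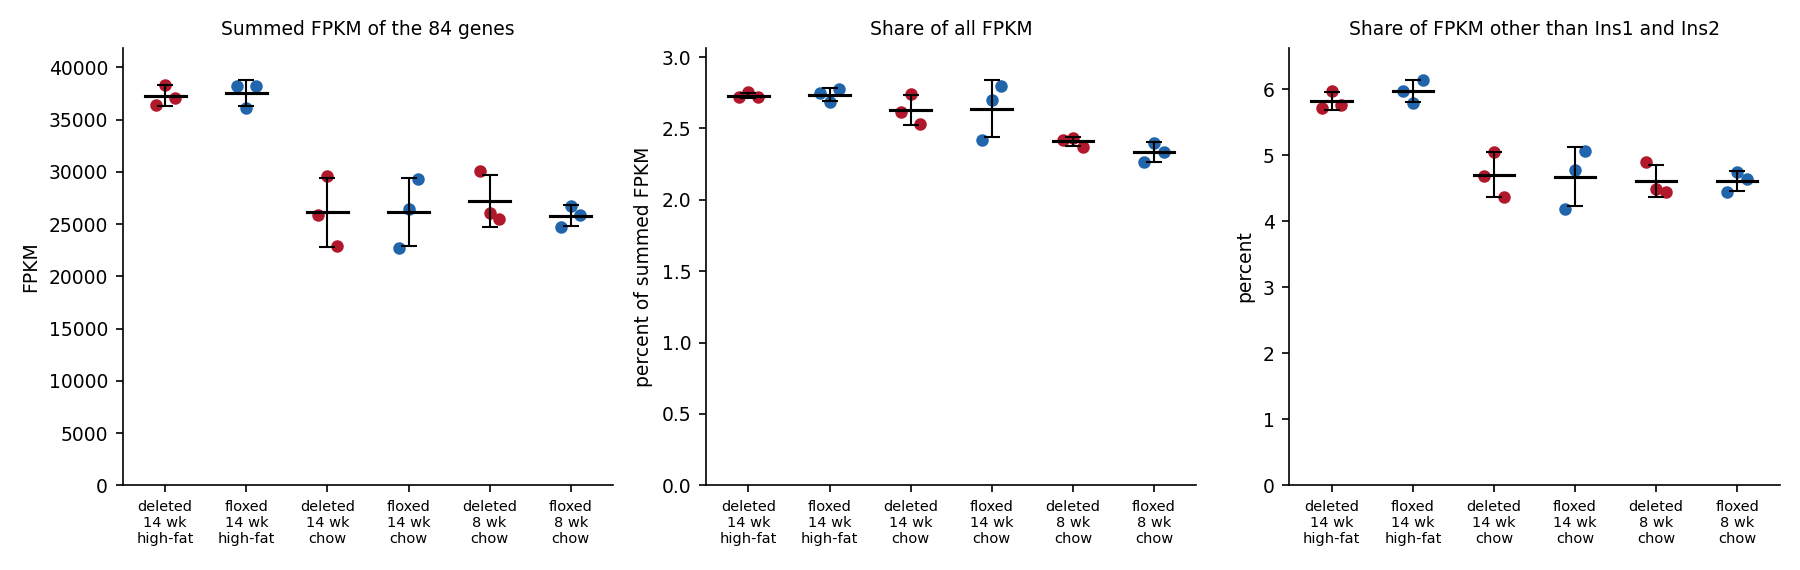
Summed FPKM of the 84 ribosomal protein genes (left), their percent of all FPKM (middle) and their percent of FPKM other than Ins1 and Ins2 (right), per library in 6 groups of 3, with mean and SD (bars). The 6 libraries on the high-fat diet hold the highest sums, while the percent of all FPKM overlaps with chow at 14 weeks.

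In deleted islets 69 of 81 members rose on the high-fat diet and 0 fell (limma, adjusted p below 0.05), where 9.05% of all tested genes rose and 5.91% fell. The members' median difference was 0.54, against -0.003 over all tested genes. In floxed islets 66 members rose and 1 fell, where 15% of all tested genes rose and 13.5% fell, with a median of 0.50 against -0.006. The groups did not overlap in 72 members in deleted islets, where 17.4% of all genes were higher without overlap, and in 68 in floxed islets, where it was 21.8%. Small subunit genes rose in 30 of 33 and 29 of 33 (medians 0.58 in deleted and 0.56 in floxed), and large subunit genes in 39 of 48 and 37 of 48 (medians 0.51 and 0.42). The same 66 members rose in both genotypes, 3 (Rpl14, Rpl22l1 and Rps19) were called in deleted islets alone, which is not a test of a difference between genotypes, and 11 were called in neither.

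The counts depend on how the libraries are scaled. With each library divided by its summed FPKM, which moves the median of all genes by -0.41 in both genotypes, 27 members were higher and 16 lower in deleted islets, and 23 higher and 19 lower in floxed islets. On that scale the members' median was 0.07 in deleted and 0.03 in floxed islets, which is 0.48 and 0.44 above the median of all genes. All tested genes moved mostly down on that scale, with 1.57% higher and 66.7% lower in deleted islets, and 2.39% higher and 65.3% lower in floxed islets. Quantile normalization gave 52 higher and 4 lower in deleted islets, and 50 higher and 5 lower in floxed islets, where 8.08% and 13.9% of all tested genes were higher and 6.96% and 14.7% lower.

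Markers of other pancreatic cells moved with the diet. Acinar markers, genes of the enzyme-secreting pancreas, fell in 11 of 15 tested in deleted and 13 of 15 in floxed islets. All 16 listed acinar markers summed to 109 to 221 FPKM in deleted and 30.2 to 424 FPKM in floxed islets on the high-fat diet, against 1586 to 3019 FPKM in deleted and 1043 to 5522 FPKM in floxed islets on chow, and Amy2a5 was listed at 0 in every library. With the acinar level as a covariate, 47 members in deleted and 45 in floxed islets were higher and 0 were lower, where 3.84% and 8.56% of all tested genes were higher. The members' medians under that fit were 0.53 and 0.50. Macrophage markers summed to 203 to 217 FPKM in deleted and 197 to 221 FPKM in floxed islets on the high-fat diet, against 268 to 332 FPKM and 335 to 381 FPKM on chow. Of 9 tested macrophage markers, 2 were called lower and 0 higher in deleted islets, and Lyz2 alone ranged from 69.4 to 203 FPKM. Duct markers summed to 1066 to 1126 FPKM in deleted and 1127 to 1183 FPKM in floxed islets on the high-fat diet. On chow they summed to 1184 to 1319 FPKM and 1274 to 1330 FPKM. In deleted islets 1 of 6 duct markers was called higher and 1 lower. Endocrine markers summed to 868302 to 918577 FPKM and 875032 to 911562 FPKM on the high-fat diet, against 485825 to 626509 FPKM and 519013 to 602902 FPKM on chow. In deleted islets 7 of 10 endocrine markers were called higher and 0 lower, with a median difference of 0.46, where 9.05% of all tested genes were higher. Fibroblast and stellate markers fell in 6 of 7 in deleted and 3 of 7 in floxed islets, and summed to 7.41 to 10.4 FPKM and 10.7 to 27.9 FPKM on the high-fat diet, against 20.2 to 34.5 FPKM and 26.9 to 49.97 FPKM on chow. Erythroid markers fell in 3 of 4 and 1 of 4, and summed to 0.786 to 3.16 FPKM and 7.06 to 10.01 FPKM on the high-fat diet, against 20.7 to 25.7 FPKM and 13.3 to 19.4 FPKM on chow. Endothelial markers fell in 4 of 11 and 5 of 11, and summed to 145 to 156 FPKM and 175 to 225 FPKM on the high-fat diet, against 164 to 188 FPKM and 219 to 228 FPKM on chow. The part of these other cell types in the members' rise was not tested.

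**Figure D2:**
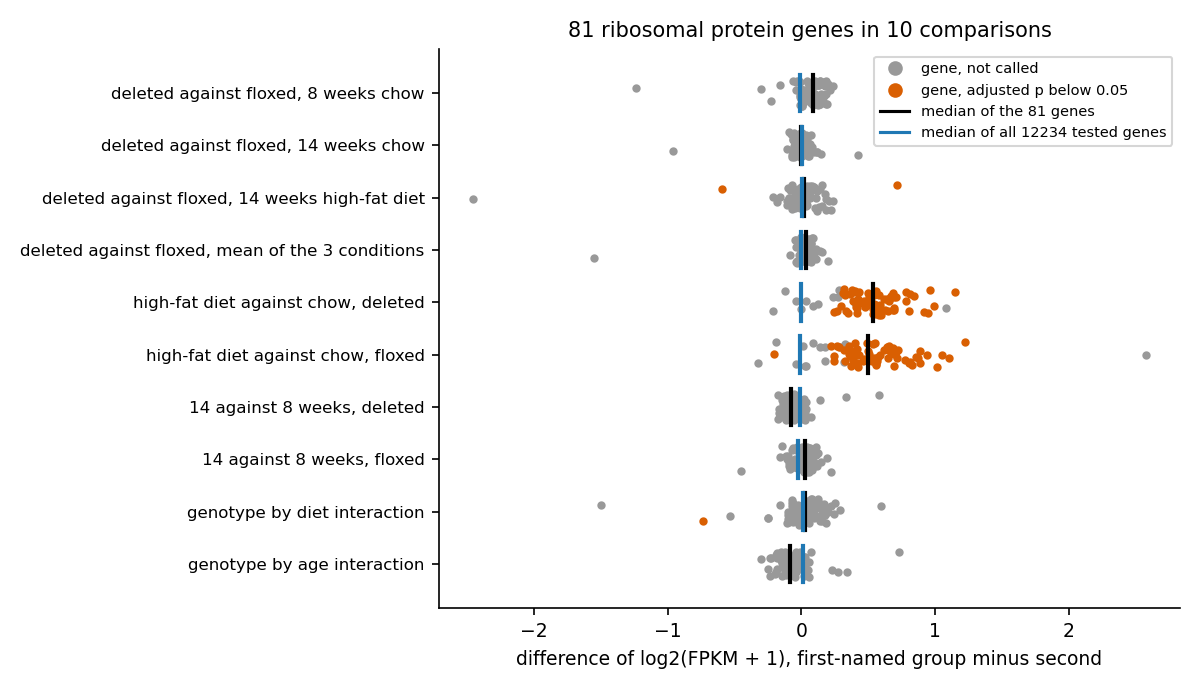
Difference of log2(FPKM + 1) for each of 81 ribosomal protein genes (points, orange where the adjusted p is below 0.05) in 10 comparisons, with the median of these genes (black) and of all 12234 tested genes (blue). The medians stand apart in both diet comparisons, at 0.54 and 0.50, and lie within 0.10 of 0 in the others.

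Among small subunit genes, Rps28, which sits near the mRNA exit of the subunit, rose most of all called members. It measured 891, 1037 and 918 FPKM in deleted islets on the high-fat diet, against 448, 510 and 336 FPKM on chow. In floxed islets it measured 973, 889 and 1023 FPKM on the high-fat diet, against 293, 455 and 518 FPKM on chow. No high-fat library overlapped a chow library, and the differences were 1.15 ± 0.17 (SE, adjusted p = 3.95e-04, limma) in deleted and 1.22 ± 0.17 (adjusted p = 1.08e-04) in floxed islets. Rps12, a small subunit protein, measured 241, 248 and 248 FPKM in deleted islets on the high-fat diet, against 123, 142 and 107 FPKM on chow, and in floxed islets 207, 214 and 227 FPKM against 117, 126 and 159 FPKM. Its rise was 0.99 in deleted and 0.70 in floxed islets, without overlap. Rps21 rose by 0.96 and 1.06.

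In the large subunit, Rpl37a measured 906, 944 and 947 FPKM in deleted islets on the high-fat diet, against 477, 549 and 426 FPKM on chow, and rose by 0.95 there and by 0.89 in floxed islets. Rpl39, a short protein of the exit tunnel, rose by 0.92 and 1.01. The stalk proteins, which recruit translation factors, rose less for Rplp0 (0.27 in deleted and 0.36 in floxed islets) than for Rplp1 (0.56 and 0.57) and Rplp2 (0.65 and 0.62), an order that was not tested. The Rplp0 call in deleted islets was lost under quantile normalization (0.0027, adjusted p = 0.977, limma), and without any 1 of deleted chow replicates 1 and 3 and deleted high-fat replicates 1 and 2 (adjusted p = 0.0577 to 0.110). Quantile normalization also lost it in floxed islets (0.088, adjusted p = 0.132). Rpl10 rose by 0.63 and 0.87. Of the other members followed by name, Rpsa, also known as a laminin receptor, rose by 0.54 and 0.42, Rps27a, made as a fusion with ubiquitin, by 0.64 and 0.67, Rps18 by 0.58 and 0.41, and Rps4x by 0.43 and 0.50. Rps4l was also called higher in both genotypes. With the acinar covariate, the calls of Rps4x, Rps4l and Rpl22l1 in deleted and of Rps18 in floxed islets were lost (adjusted p = 0.0577 to 0.119, limma). Leaving out some single libraries lost the deleted calls of Rps4l and Rpl22l1 (adjusted p = 0.0531 to 0.0581). With libraries divided by their sums, Rplp0 and Rps4l were negative in both genotypes. So were Rps4x and Rps27l in deleted islets, and Rpsa and Rps18 in floxed islets.

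Some members were not called higher on the high-fat diet. Rpl3, a core protein near the peptidyl transferase centre, measured 446, 436 and 432 FPKM in deleted islets on the high-fat diet, against 453, 473 and 423 FPKM on chow. In floxed islets it measured 394, 397 and 390 FPKM on the high-fat diet, against 427, 453 and 484 FPKM on chow. It fell in floxed islets by 0.20 (adjusted p = 0.0145, limma) without overlap, a call lost with the acinar covariate (-0.18, adjusted p = 0.193) and without floxed chow replicate 3 (-0.16, adjusted p = 0.0728). Its difference was -0.04 in deleted islets, where the groups overlapped. Rps6, the target of S6 kinase, was at 0.13 and 0.09, Rps2 at 0.00 and -0.19, Rpl4 at 0.04 and 0.02, Rpl13 at 0.09 and 0.04, and Rpl13a at 0.28 and 0.03, none of them called. The paralog Rpl7l1, related to Rpl7, was at -0.12 and -0.04.

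**Figure D3:**
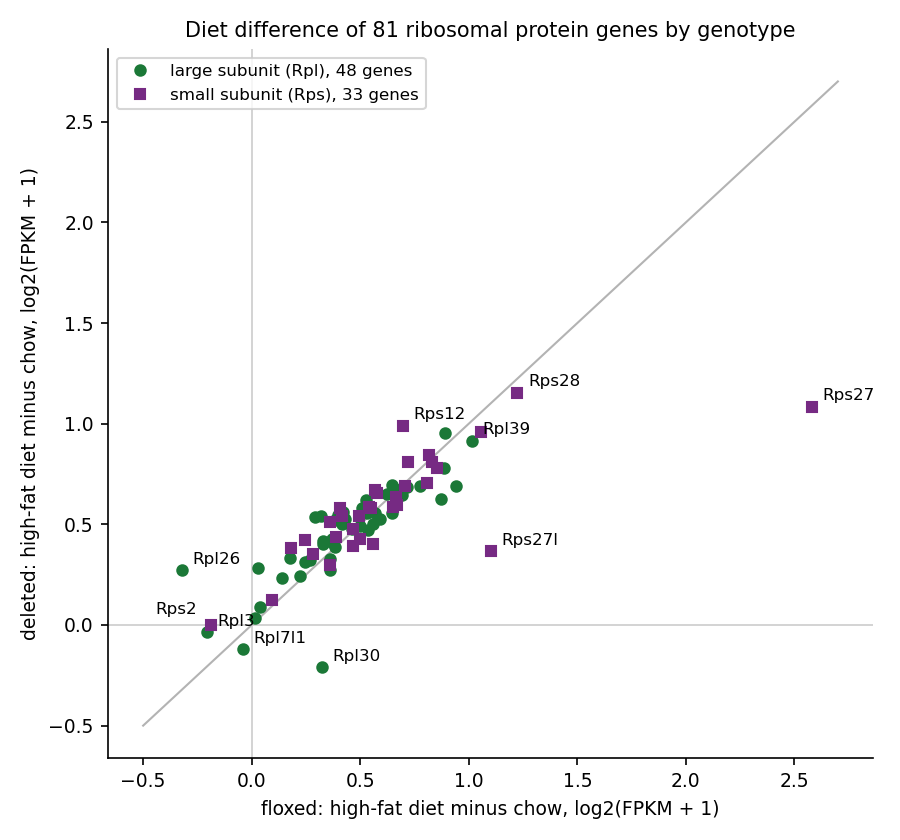
Difference of log2(FPKM + 1) between high-fat diet and chow at 14 weeks for 81 ribosomal protein genes, in deleted islets (vertical axis) against floxed islets (horizontal axis), large subunit as circles and small subunit as squares, with the line of equal difference. Most genes lie near the line, while Rps27l, at 0.37 and 1.10, and Rps27 lie well below it.

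The size of the rise ran inversely with coding length and less clearly with transcript length, a relation looked for after the data had been seen. Of 2 length measures, transcript length was tried first. FPKM are divided by a transcript length, but the annotation the authors used is not given. The lengths here, such as 5179 bases for Rps15a with 390 coding bases, may differ from theirs. Over the 80 tested members with an annotated length, r with the log2 transcript length was -0.32 in deleted and -0.33 in floxed islets. In 3 equal classes of transcript length (27, 27 and 26 genes) the medians were 0.59, 0.43 and 0.52 in deleted islets and 0.57, 0.39 and 0.45 in floxed islets, short to long, so the longest class did not have the smallest rise. Other tested genes with a mean of at least 50 FPKM had medians of 0.36, 0.20 and 0.0077 in deleted and 0.39, 0.26 and 0.015 in floxed islets in the same classes. With coding length, tried next, r was -0.61 and -0.57. In 5 bins of coding length the medians were 0.85 (up to 300 bases, 10 genes), 0.58 (28 genes), 0.54 (19 genes), 0.37 (20 genes) and 0.04 (over 900 bases, 3 genes) in deleted islets, and 0.95, 0.55, 0.50, 0.30 and 0.02 in floxed islets. Since 2 of these bins held 10 genes or fewer, another grouping in 3 bins was made, with medians of 0.63, 0.54 and 0.33 in deleted and 0.63, 0.50 and 0.28 in floxed islets. The other genes from 50 FPKM had medians of 0.27, 0.11 and -0.01 in deleted and 0.31, 0.16 and -0.01 in floxed islets in the same 3 bins. The part of length in the members' rise was not tested.

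**Figure D4:**
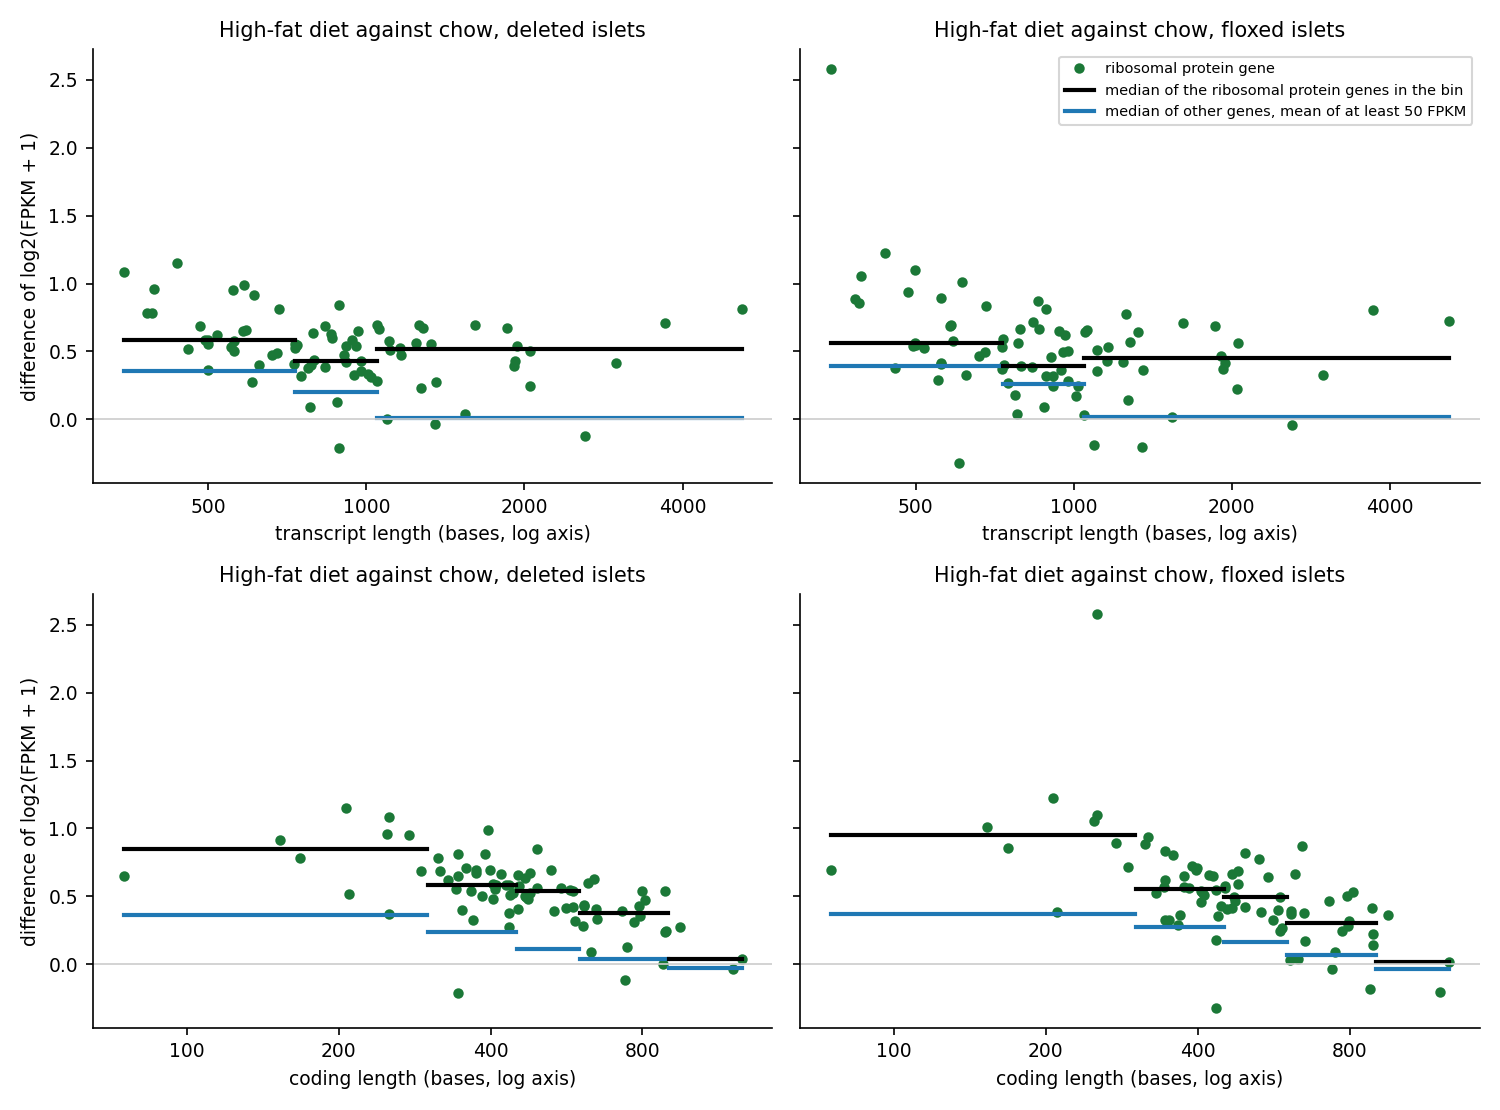
Difference of log2(FPKM + 1) between high-fat diet and chow in deleted (left) and floxed (right) islets against transcript length (top) and coding length (bottom) in bases on log axes, for 80 ribosomal protein genes (points). Lines give medians of these genes (black) and of other genes with a mean of at least 50 FPKM (blue) in 3 classes of transcript length and in 5 bins of coding length, and the members' medians fall steadily with coding length but not with transcript length.

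Members with and without a pyrimidine run near a listed start had close medians for diet, a difference that was not tested. The 29 members with such a run within 5 bases of a listed start had medians of 0.54 in deleted and 0.42 in floxed islets, and the 31 without had 0.51 and 0.50. Of the windows shown above, those of Rps28 (1.15 in deleted and 1.22 in floxed islets) and Rpl37a (0.95 and 0.89) hold no run. Those of Rps10 (0.85 and 0.82), Rps21 (0.96 and 1.06), Rps27l (0.37 and 1.10) and Rps6 (0.13 and 0.09, not called) hold one.

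Between genotypes the clearest difference was in Rps27l, a paralog of Rps27 that p53 induces. On the high-fat diet it measured 618, 630 and 573 FPKM in deleted islets, against 908, 903 and 930 FPKM in floxed islets. On chow at 14 weeks it measured 482, 519 and 415 FPKM in deleted islets, against 394, 418 and 466 FPKM in floxed islets. The genotypes did not overlap on the high-fat diet and overlapped on chow. Rps27l was lower in deleted islets with a difference of -0.59 ± 0.09 on the high-fat diet (SE, adjusted p = 4.23e-04, limma), and the interaction of genotype with diet was -0.74 ± 0.13 (adjusted p = 0.00405). It rose with the diet by 0.37 in deleted islets (adjusted p = 0.0120) and by 1.10 in floxed islets (adjusted p = 1.43e-07). The rise in deleted islets was lost under quantile normalization (0.11, adjusted p = 0.213), without deleted chow replicate 3 (adjusted p = 0.0769) and without deleted high-fat replicate 2 (adjusted p = 0.0550). The interaction stayed called in all alternatives, at -0.82 to -0.66. It was the only member called in the interaction, where 3.53% of all tested genes were called. Between genotypes on the high-fat diet, endothelial markers were lower in deleted islets in 6 of 11, summing to 145 to 156 FPKM, against 175 to 225 FPKM in floxed islets. Erythroid markers were lower in 3 of 4, at 0.786 to 3.16 FPKM in deleted islets, against 7.06 to 10.01 FPKM in floxed islets, and fibroblast and stellate markers in 1 of 7. Endocrine markers were higher in 3 of 10, and 0 of 15 acinar markers were called. The part of these cell types in the Rps27l difference was not tested.

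On the high-fat diet 1 further member was called between genotypes, where 4.7% of all tested genes were higher and 6.02% lower. Rpl26, a large subunit protein known to bind p53 mRNA, measured 48.1, 61.4 and 67.4 FPKM in deleted islets, against 36.5, 26.0 and 45.8 FPKM in floxed islets. The groups did not overlap, and it was higher in deleted islets by 0.71 ± 0.20 (SE, adjusted p = 0.0343, limma). The call was lost with only these groups in the fit (0.71, adjusted p = 0.153), with the replicate block (0.71, adjusted p = 0.0532), and without any 1 of deleted replicates 2 and 3 and floxed replicates 1 and 2 (0.50 to 0.74, adjusted p = 0.0707 to 0.115).

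**Figure D5:**
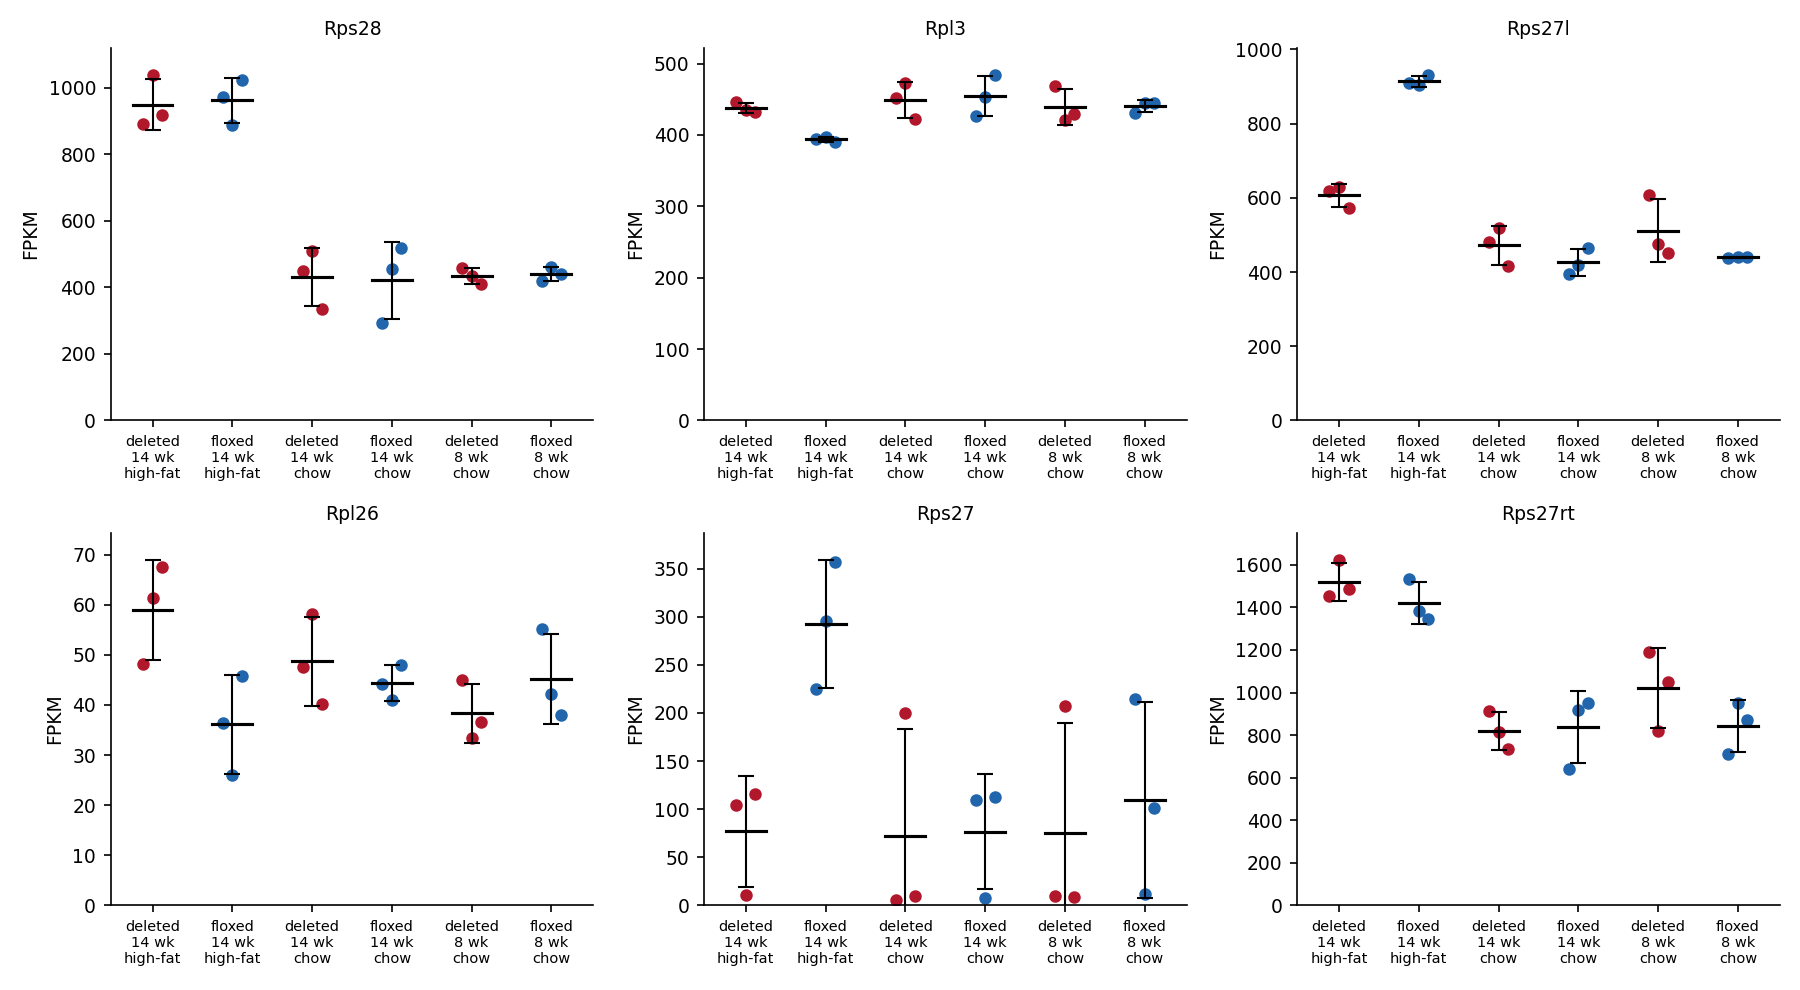
FPKM of Rps28, Rpl3, Rps27l, Rpl26, Rps27 and Rps27rt per library in 6 groups of 3, with mean and SD (bars, cut at 0). Rps27l reaches 903 to 930 FPKM in floxed islets on the high-fat diet and 573 to 630 FPKM in deleted islets on the same diet, while Rps27 ranges widely within groups.

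Rps27 itself could not be read reliably. It measured 104, 10.8 and 116 FPKM in deleted islets on the high-fat diet, against 225, 295 and 357 FPKM in floxed islets, and varied from 5.98 to 200 FPKM within deleted islets on chow at 14 weeks. Rps27rt, a near-identical copy listed under its own symbol, held 642 to 1622 FPKM. The 2 summed to 1598 ± 38.5 FPKM in deleted and 1713 ± 41.2 FPKM in floxed islets on the high-fat diet (SD, n = 3 each), against 891 ± 138 FPKM and 914 ± 157 FPKM on chow at 14 weeks. The authors' counting could split reads between such copies, so Rps27, Rpl34 (copy Rpl34-ps1) and Rpl36a (copy Rpl36al) are uncertain as single genes.

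In the remaining comparisons no member was called. Between genotypes at 8 weeks 0 of 81 members passed, where 0.548% of all tested genes did. An unadjusted p below 0.05 was found in 3 members, and in 1535 of all 12234 tested genes. The median was 0.09 with 64 members positive, against 5919 of all tested genes. Members moved together across libraries, so their signs are not separate observations. Without overlap, 13 members were higher in deleted islets, where 7.19% of all genes were. Without deleted replicate 1 at 8 weeks the median was 0.01. The smallest p-values belonged to Rpl23a (0.21, adjusted p = 0.344, limma), Rpl21 (0.19) and Rps27l (0.20). At 14 weeks on chow 0 members passed, where 0.114% of all genes did. An unadjusted p below 0.05 was found in 0 members and 976 of all tested genes, and the members' median was -0.002. That median was -0.10 without floxed replicate 1 and 0.09 without deleted replicate 3. Over the mean of the 3 conditions 0 passed, where 3.61% of all genes did. At an unadjusted p below 0.05 stood 0 members and 2159 of all tested genes. The paralog Rpl22l1 had the smallest p there (0.16, adjusted p = 0.293, limma).

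With age on chow, 0 members passed in deleted islets, where 2.91% of all genes did, and 0 in floxed islets, where 4.15% did, with 1 and 0 at an unadjusted p below 0.05. The medians, 14 against 8 weeks, were -0.08 in deleted and 0.02 in floxed islets. Summed FPKM averaged 991372 at 14 weeks and 1129280 at 8 weeks in deleted islets, and 988913 and 1105270 in floxed islets. Dividing libraries by their sums therefore raises genes in general at 14 weeks, not the members alone. On that scale the deleted median was 0.11. There, 12 members in deleted and 39 in floxed islets were called, against 10.5% and 9.76% of all tested genes. The deleted median was 0.01 without deleted replicate 3 at 14 weeks, and the floxed median was -0.06 without floxed replicate 3 at 14 weeks. Rpl30, a large subunit protein at 44.1 FPKM on average, had the smallest p in deleted islets (0.58, adjusted p = 0.191, limma). The interaction of genotype with age called 0 members, where 0.196% of all genes were called, with 1 at an unadjusted p below 0.05.

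Ribosomal proteins with other symbols and other translation genes were followed from lists. Diet counts here and in the next paragraph stand against 9.05% of all tested genes higher and 5.91% lower in deleted islets. In floxed islets these shares were 15% and 13.5%. On the high-fat diet, Fau, a small subunit protein made as a fusion (0.51 in deleted and 0.53 in floxed islets), and Rpl36al, a close copy of Rpl36a (0.41 and 0.41), rose in both genotypes, while Gnb2l1, the scaffold protein RACK1, was not called (0.24 and 0.14). Elongation factors and other genes with TOP mRNAs rose in 12 of 17 in deleted and 11 of 17 in floxed islets, among them Eef1a1, which brings aminoacyl-tRNA to the ribosome (0.52 and 0.41). Genes that host small nucleolar RNAs in their introns rose in 6 of 11 and 8 of 11, among them Snhg1 (0.55 and 1.47) and Snhg12 (0.79 and 1.25). Among ribosome biogenesis factors, in deleted islets 3 of 28 rose and 0 fell, and in floxed islets 2 rose and 8 fell, where 9.05% of all tested genes rose in deleted islets, and 15% rose and 13.5% fell in floxed islets. Nop56, a core protein of small nucleolar particles, fell by 0.55 in floxed islets. The interaction of genotype with diet was called for Snhg1 (-0.92), Nop56 (0.37) and Rrp9 (0.44), where 3.53% of all tested genes were called.

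Among regulators of ribosome synthesis 3 of 20 rose in deleted islets, and 6 rose and 2 fell in floxed islets, to be read against the same shares of all tested genes. Larp1, which binds TOP mRNAs, rose by 0.83 and 0.39, and Eif4ebp2, a translation repressor under mTOR, by 0.86 and 0.71. Eif4e, the cap-binding protein, fell by 0.25 in floxed islets, and Max, the partner of Myc, rose there by 1.34. Mitochondrial ribosomal protein genes rose in 18 of 77 and fell in 1 in deleted islets, and rose in 30 and fell in 2 in floxed islets, with medians of 0.14 and 0.17. Nuclear genes of oxidative phosphorylation rose in 42 of 74 and fell in 1, and rose in 50 and fell in 2, with medians of 0.29 and 0.32.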

How the data were processed

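Gene-level FPKM of 18 islet libraries were used as deposited by the authors, 1 table per library. The unit is not named in the headers and was taken from the values and from Cufflinks. Per the submitters' processing notes, the tools were Cufflinks 2.2.1, TopHat2 2.0.13, SAMtools 0.1.19 and Bowtie2 2.2.3 on build mm10, with no roles and no annotation given. Per the labels' protocols, RNA was extracted with a miRNeasy kit and libraries were made with SMART-Seq HT and Nextera, which do not mark the strand. Median ratios of the libraries to their geometric mean were 1.00 to 1.01, so the values look rescaled between libraries.

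Genes that reached 1 FPKM in 3 or more libraries entered a fit of 6 group means to log2(FPKM + 1) with robust, trended moderated variances (limma 3.58.1, statmod 1.5.0, R 4.3.3). In 10 comparisons p-values were adjusted over all 12234 genes by the Benjamini-Hochberg method, and genes were called below 0.05. The method was tried on simulated data with independent noise in each gene, which does not cover members that move together. Members and lists were chosen with earlier results of these data known. Named were a set list of members, in each comparison up to 4 called members with the largest rise and 4 with the largest fall, or the 3 smallest p-values where none was called, and some of the called genes of the related lists with the smallest p-values. Rps2, Rps10, Rpl4, Rpl13, Rpl37a in floxed islets, Rps27, the genes of the low correlations and the related genes past the rule were named after their values were seen. Other genes of these lists that met the rule are not reported here. Lengths came from GENCODE on GRCm38, the build of mm10, as the principal coding transcript, with the longest taken where several were equally principal. The length analysis was added after the data had been seen, with 3 groupings over 2 length measures, all of which are given. Alternatives covered pseudocount, filters, scalings, weights, groups in the fit, replicate block, acinar covariate and each library left out, which takes the spread of the 2 remaining libraries from all groups. Other software was matplotlib 3.10.9, pandas 2.3.3, numpy 2.4.6 and python 3.11.15.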

Additional observations from a re-analysis of the deposited data

Results flagged for a closer look

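Rps27l differed between genotypes in its diet response by a test of the difference itself, with an interaction of -0.74 (adjusted p = 0.00405, limma). It rose by 0.37 in deleted islets and by 1.10 in floxed islets, and all 3 deleted libraries on the high-fat diet lay below all 3 floxed ones.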

How the results depend on the processing

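With libraries divided by their sums, 43 members were called in deleted and 42 in floxed islets for diet (medians 0.073 and 0.025), 5 between genotypes on the high-fat diet, and 12 in deleted and 39 in floxed islets for age (medians 0.11, a reversal, and 0.19). Reversed on that scale were, for diet in deleted islets, Rplp0 (-0.19), Rps4x (-0.037), Rps27l (-0.10) and Rps4l (-0.16), for diet in floxed islets Rplp0 (-0.11), Rpsa (-0.055), Rps18 (-0.068) and Rps4l (-0.11), and for age in deleted islets Rps24 (0.013) and Rpl18 (0.024). Dividing by the sum without the 10 most abundant genes gave a diet median of 0.37 in floxed islets. Quantile normalization gave diet medians of 0.31 in deleted and 0.29 in floxed islets, -0.0050 for Rps18 in floxed islets, 5 calls between genotypes on the high-fat diet, 1 for age in deleted islets and 2 in the interaction with diet. Fitting the high-fat groups alone called 10 members between genotypes, where it called 11.6% of all tested genes. The cause was not tested. Other counts in this section stand without the share of all tested genes under the same setting. They show how far the calls moved and are not a result about the members.

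Leaving out 1 library gave 56 to 71 diet calls in deleted islets, 56 to 67 in floxed islets, and 1 to 2 between genotypes on the high-fat diet. Replicate numbers were not taken as pairs. Same-numbered libraries had correlations of deviations from -0.16 to 0.23 (median 0.04, 45 pairs). Different-numbered ones had -0.23 to 0.22 (median -0.016, 90 pairs). Whether libraries of the same number share a batch is not known. With the replicate block 68 and 66 members were called for diet and 1 between genotypes on the high-fat diet, where Rpl26 was lost (adjusted p = 0.0532, limma). Of the values for named genes under alternatives, 1403 kept their side of the threshold, 32 lost a call, 4 gained one and 11 reversed. Fragment numbers are unknown, so no counting error could be given.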
